A study of Rattus norvegicus with 18 samples.

Results

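The 150 genes described here are those that stood higher in the retinae of diabetic rats (DC) than in those of healthy controls (NC) with no overlap between the animals. They were chosen by their FPKM values (fragment counts scaled by gene length and library size) in NC and DC alone. A gene qualified when its lowest FPKM in the 6 DC animals was above its highest FPKM in the 6 NC animals and its mean FPKM in DC was 1 or more. This held for 497 of the 14078 rows with such a mean, which is 3.53%, out of 32623 rows in all. From these, the 150 with the largest difference of mean log2(FPKM + 0.1), DC minus NC, became the members, and they are ranked by that difference. Diabetic animals treated with lixisenatide (DC + Lixi) did not enter the choice, so the levels in DC + Lixi are what is measured here.

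All animals were male Wistar rats, 8 weeks old at the start, and each gave 1 library of whole retina RNA, with 6 animals per group. NC were age-matched animals without diabetes. DC had received 35 mg/kg streptozotocin intravenously and counted as diabetic with a blood glucose above 14 mmol/l after 1 week. The labels give placebo as the treatment of both groups. DC + Lixi were diabetic by the same procedure and additionally received 150 µg/kg lixisenatide subcutaneously on 5 days a week from week 1 to week 12, and the retinae of all groups were collected at 12 weeks.

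Streptozotocin destroys the insulin-producing beta cells of the pancreas, and the animals become hyperglycaemic for lack of insulin. In the diabetic retina, capillaries lose pericytes and endothelial cells, neurons are impaired, and Müller glia, the macroglia that span the retina and sustain its neurons, enter a reactive state called gliosis. Lixisenatide is an agonist of the receptor for glucagon-like peptide 1, a gut hormone that promotes glucose-dependent insulin release.

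The deposited tables identify genes by Ensembl gene numbers and do not pair them with symbols. The reference table at hand matched 0 of these numbers. Members are therefore given by rank, the first 2 by number as well, and neither their roles nor the retinal origin of the samples could be checked against marker genes. In bulk retina, fewer cells of a type and less RNA per cell cannot be told apart. Estimated counts summed to 28311638 to 39131627 per library. Nothing in the labels states a batch or a date.

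The differences that selected the members are a description of the choice. Relative to NC, the members stood 1.76-fold to 14.4-fold higher in DC, with a median of 2.49-fold, from the group means of log2(FPKM + 0.1). A difference of 4-fold or more was found in 29 members, one of 2-fold to 4-fold in 86 and a smaller one in 35. The FPKM of the lowest DC animal, without the added 0.1, was a median of 1.34 times that of the highest NC animal (range 1.01 to 6.27). At the limit, the members ranked 148, 149 and 150 had differences of 0.83, 0.82 and 0.81 log2 units, and the next 3 rows, which were left out, had 0.81, 0.80 and 0.80. Genes of low expression were frequent among the members. A mean FPKM below 1 in NC was found in 41 members and in 2.44% of all 14078 rows, a mean of 1 to 10 in 86 members and in 41.5% of rows, a mean of 10 to 100 in 20 members and in 51.5% of rows, and a mean above 100 in 3 members and in 4.53% of rows. All of these rows have a mean of 1 or more in DC, so those below 1 in NC are rows that were higher in DC. The contrast at this level thus follows at least in part from the choice, and nothing is read from it.

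The member with the largest difference was ENSRNOG00000002919. In NC its FPKM was 14.2, 19.3, 21.2, 10.3, 8.02 and 14.1 in animals 431, 432, 433, 437, 438 and 439. In DC it was 231, 177, 200.1, 228, 113 and 293 in animals 386, 390, 396, 407, 425 and 430. Of the DC + Lixi animals, 388 had 156, 403 had 163 and 428 had 240.2, but 401 had 15.2, 418 had 19.3 and 419 had 22.9. The former animals lay within the range of DC. Animals 401 and 418 lay within the range of NC, and 419 just above it. The group means were 14.5 ± 5.05 in NC, 207 ± 60.1 in DC and 103 ± 96.3 in DC + Lixi (SD, n = 6 each), so the DC + Lixi mean fell where no treated animal stood.

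ENSRNOG00000002946, which ranked second, was expressed at a far lower level. Its FPKM in the NC animals, in the same order, was 0.667, 0.786, 0.477, 0.320, 0.393 and 0.518. In the DC animals it was 7.16, 11.2, 4.84, 10.3, 2.74 and 18.5. Of the DC + Lixi animals, 388 had 6.48, 403 had 9.75 and 428 had 9.80, against 0.622 in 401, 1.28 in 418 and 0.70 in 419. The same treated animals stood in the range of DC as for the first member, and 418 was above all of NC and below all of DC. The group means were 0.527 ± 0.173 in NC, 9.14 ± 5.61 in DC and 4.77 ± 4.45 in DC + Lixi (SD, n = 6 each).

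**Figure D1:**
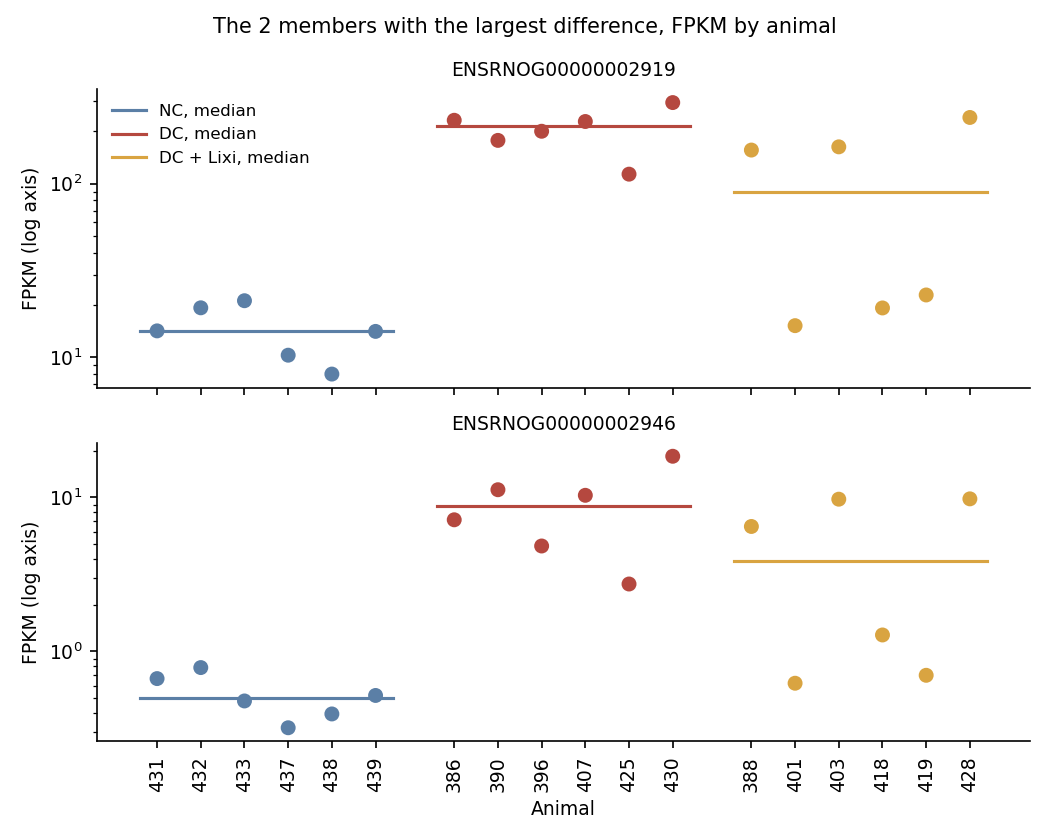
FPKM of the 2 members with the largest difference, in each of the 18 animals on a log axis, with points coloured by group and a line at the group median. In both panels the DC + Lixi animals 388, 403 and 428 stand at the level of DC and 401, 418 and 419 near that of NC.

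The other members among the first 12 showed the same animals high and low. The member ranked 3 stood at 4.93, 7.42 and 6.63 FPKM in the treated animals 388, 403 and 428. In 401, 418 and 419 it stood at 0.293, 0.774 and 0.284, where NC ranged from 0.175 to 0.574. Its DC values were 5.33 to 8.59 in 5 animals and 0.743 in 425. The member ranked 6 had the largest ratio of the lowest DC animal to the highest NC animal, 6.27, from 4.29 in the highest NC animal to 26.9 in the lowest DC animal. Here 388, 403 and 428 stood at 41.7, 29.9 and 38.6, and 401, 418 and 419 at 5.59, 5.59 and 5.79, which was above every NC animal but far below every DC animal. The member ranked 10 was at 45.1, 39.0 and 39.3 in the former animals and at 5.54, 6.18 and 5.37 in the latter, with NC at 3.57 to 6.87 and DC at 10.95 to 80.0.

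To follow all members in each animal, each value of log2(FPKM + 0.1) was given a place, 0 at the mean of NC and 1 at the mean of DC, and the median place over the 150 members was taken. The NC and DC animals set this scale and served the choice, so their places only show the spread within these groups. NC animals stood between -0.10 and 0.11. DC animals stood between 0.94 and 1.23, apart from 425 at 0.61. The treated animals 388, 403 and 428 stood at 0.93, 0.94 and 1.07, and 418, 419 and 401 at 0.25, 0.14 and 0.00. Over the 6 treated animals this was 0.554 ± 0.477 (SD, n = 6), a spread above the 0.213 of DC and the 0.0774 of NC.

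**Figure D2:**
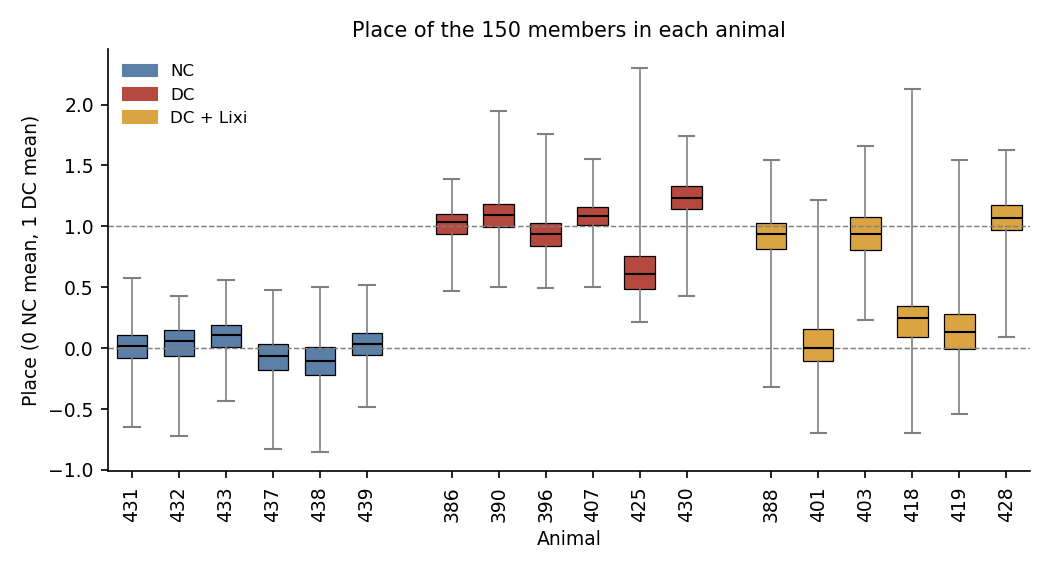
Place of the 150 members in each of the 18 animals, where 0 is the NC mean and 1 the DC mean of log2(FPKM + 0.1). Boxes give the quartiles over members with the median as a line, and whiskers the lowest and highest member. The medians of animals 388, 403 and 428 lie at 0.93 to 1.07 and those of 401, 418 and 419 at 0.00 to 0.25.

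Counted member by member, animal 428 reached at least the lowest DC animal in 147 of the 150 members, 388 in 139 and 403 in 135. Animal 418 did so in 21, 401 in 12 and 419 in 10. At the other end, 401 was not above the highest NC animal in 118 members, 419 in 96 and 418 in 64, against 2, 2 and 1 in 388, 428 and 403. Animal 418 differed from 401 in that 65 of its values lay above all of NC and below all of DC. Relative to the rows in general, a larger share of members than of rows stood above all NC animals in every treated animal. The highest NC animal also served the choice, so part of this difference can come from the choice, and that part was not tested. These shares were 21.3% of the members and 9.26% of the 14078 rows in animal 401, 36.0% and 12.4% in 419, and 57.3% and 12.5% in 418. They were 98.7% and 15.1% in 388, 99.3% and 18.6% in 403, and 98.7% and 20.5% in 428.

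**Figure D3:**
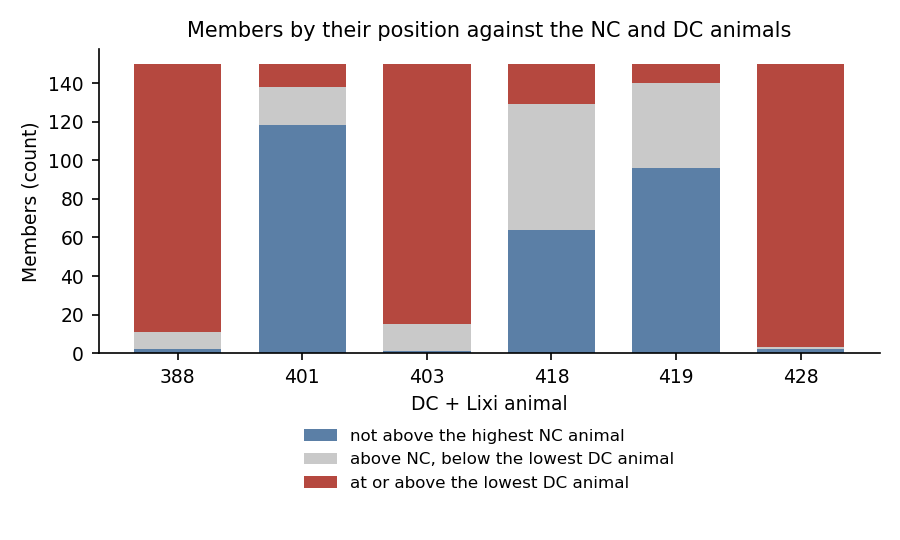
Number of members in each DC + Lixi animal that were not above the highest NC animal (blue), above it but below the lowest DC animal (grey), or at or above the lowest DC animal (red). The red part holds 135 to 147 members in 388, 403 and 428 and 10 to 21 in 401, 418 and 419. The share of all rows at or above the lowest DC animal was not determined.

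The order of the treated animals was shared by most members. In 134 of the 150 members (89.3%) the highest DC + Lixi animals were 388, 403 and 428. This was so in 58.8% of the 347 rows that met the rule but lay past the limit of 150, and in 9.01% of the 13581 rows that did not meet it. In 105 members (70%) the widest gap between neighbouring treated animals also lay between these animals and the others, compared with 21.0% of the rows past the limit and 1.86% of the rows that did not meet the rule. In those 105 members the gap measured 0.37 to 2.85 log2 units, with a median of 0.88. Animal 401 was the lowest treated animal in 92 members and 428 the highest in 84. The animals were grouped by no label other than DC + Lixi, and no test was made between those that stood high and those that stood low.

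Among the untreated diabetic animals, 425 was the lowest in 117 of the 150 members (78%), and in 31.2% of all rows. Animal 430 was the highest in 83 members (55.3%), and in 25.6% of all rows. The summed FPKM of the members was 3156 in 425 and 5904 in 430, and lay between 4514 and 5257 in the other DC animals. In NC it was 1416 to 1725, with a mean of 1589 ± 113 (SD, n = 6). In DC + Lixi the sum was 4259 in 388, 4255 in 403 and 5090 in 428, and 1855 in 418, 1743 in 419 and 1635 in 401. Treated animals thus fell on either side of the DC animal 425.

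The members varied more between the treated animals than within the other groups. Over 6 animals the SD of log2(FPKM + 0.1) had a median over members of 0.65 in DC + Lixi, 0.35 in DC and 0.26 in NC. Over all 14078 rows it was 0.12 in each of the groups. The SD was larger in DC + Lixi than in NC for 148 members, and larger than in DC for 142. Of all rows, 51.9% and 48.3% had a larger SD in DC + Lixi than in NC and in DC. The choice required DC and NC to be separate and set no such limit on DC + Lixi, and how far this moves the comparison of spreads was not tested.

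**Figure D4:**
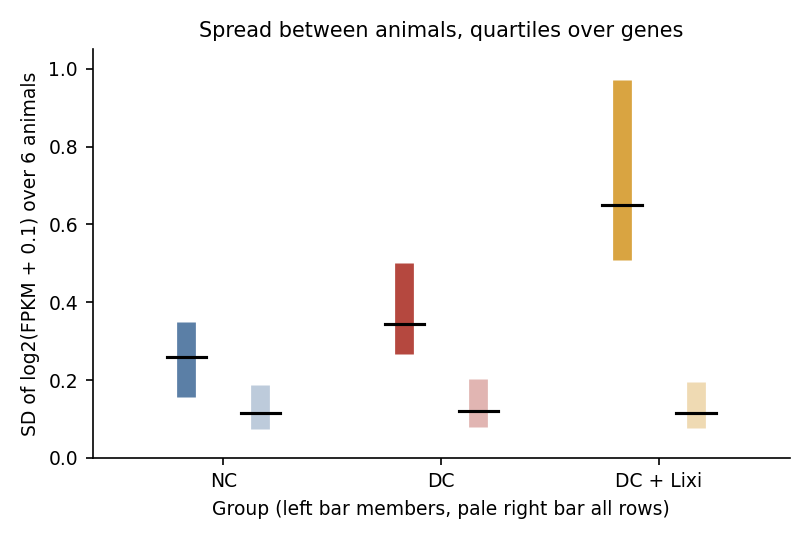
SD of log2(FPKM + 0.1) over the 6 animals of each group, with bars from the lower to the upper quartile over genes and a line at the median. The members (left, full colour) have medians of 0.26 in NC, 0.35 in DC and 0.65 in DC + Lixi, and all rows (right, pale) have 0.12 in each group.

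With the treated animals averaged, the members fell between NC and DC. In 149 members the mean log2(FPKM + 0.1) of DC + Lixi was above that of NC and below that of DC, and in the remaining 1 it exceeded both. The median difference was 0.77 log2 units against NC and -0.62 against DC, where the medians over all rows were -0.03 and -0.03. On the scale from 0 at NC to 1 at DC, the DC + Lixi means of the members had a median place of 0.56 (quartiles 0.49 and 0.62), and 127 members lay between 0.4 and 0.7. For the rows past the limit the median place was 0.51. Since the members were chosen for high values in these DC animals and low values in these NC animals, the mean of another group can lie between them through the choice alone, and this part was not tested. By the mean FPKM in NC, the median place was 0.57 for the members below 1, 0.56 for those of 1 to 10, 0.55 for those of 10 to 100 and 0.44 for the 3 above 100.

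The members with the highest and lowest places mostly kept the order of the treated animals, as 388, 403 and 428 were the highest in 6 of these 8. The exceptions were the members ranked 134 and 149. The member ranked 134 was the only one with a DC + Lixi mean above that of DC, at a place of 1.31. Animal 418 had the highest FPKM, 20.7, followed by 388 with 14.2, 428 with 13.5, 419 with 13.4, 401 with 8.69 and 403 with 7.68, so that its highest animals were 418, 388 and 428. In NC it ranged from 4.85 to 5.85 and in DC from 6.18 to 14.7, and no treated animal overlapped with NC. The member ranked 38 (place 0.88) stood at 45.0 to 66.3 in animals 419, 418 and 401 and at 102 to 158 in the others, all above the NC range of 16.8 to 33.8. High places were also found for the members ranked 140 (0.90) and 56 (0.84). The lowest place, 0.02, belonged to the member ranked 149, whose highest treated animals were 403, 428 and 419, with treated animals from 1.95 to 5.46 FPKM, NC from 2.34 to 3.94 and DC from 4.31 to 7.46. This member was highest of all DC animals in 425, which was otherwise mostly the lowest. The members ranked 119 (0.20), 129 (0.29) and 96 (0.32) followed, and in the first of these only animals 388 and 403 stood above all of NC.

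In 18 of the 150 members (12%) every treated animal was above every NC animal. The same held for 0.511% of the 14078 rows, but the NC animals had also served to choose the members. No member had every treated animal below every DC animal, which was found in 0.313% of rows. In the remaining 132 members the values of DC + Lixi reached into the range of NC or below it and into that of DC or above it. The highest treated animal exceeded the highest DC animal in 24 members, and the lowest treated animal was under the lowest NC animal in 26. For these counts the share of all rows was not determined, and the NC and DC animals had served the choice. Without animal 401, 42 members had all of the remaining treated animals above NC, but the share of all rows without this animal was not determined. Fewer animals separate more easily in any row, so the 42 cannot be set against the 18.

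Expression in DC + Lixi was compared with NC by edgeR's quasi-likelihood test on the estimated counts of all 18 libraries, with p-values adjusted by Benjamini-Hochberg over 16524 genes. The NC libraries had also served to choose the members. All 150 members were tested, and 52 of them were higher in DC + Lixi than in NC at an adjusted p under 0.05, where 0.95% of all genes were called higher. None was called lower. The log2 fold changes of the 52 ranged from 0.47 to 3.44. Over the 150 members the median was 0.92 with a median standard error (SE) of 0.25. An unadjusted p under 0.05 was found for 147 members and, in the upward direction, for 10.5% of all genes, and 62 members had an adjusted p between 0.05 and 0.1. The members called had a median place of 0.61, and those not called one of 0.53. Of the 18 members without overlap between DC + Lixi and NC, 16 were called.

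The count of 52 depended on single animals and on the test. It rose to 122 without the treated animal 401 and to 102 without 419, and fell to 9 without 388, to 6 without 403 and to 5 without 428. The share of all genes called higher moved with it, to 2.40%, 1.83%, 0.150%, 0.138% and 0.120% in the same order. Leaving out an NC animal gave 10 without 431, 6 without 432, 12 without 433, 19 without 437, 5 without 438 and 9 without 439, beside 0.126% to 0.619% of all genes. It was 24 without the DC animal 386 and 33 without 407, beside 0.481% and 0.680% of all genes. Without the DC animals 425, 430, 390 and 396 it was 77, 57, 44 and 39, beside 1.38%, 1.14%, 0.813% and 0.746% of all genes. Without the treated animal 418 it was 73, beside 1.26%. DESeq2 called 117 members and 3.17% of all genes higher, and limma-voom 8 members and 0.375%.

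The smallest p in DC + Lixi vs NC belonged to the member ranked 134, with 5.38 ± 0.366 FPKM in NC and 13.02 ± 4.64 in DC + Lixi (SD, n = 6 each), a log2 fold change of 1.30 (SE 0.20, with an edgeR adjusted p = 0.0147). The members ranked 38, 140 and 64 followed with log2 fold changes of 1.77, 0.85 and 1.21 and the same adjusted p. In all 4 of these members every treated animal was above every NC animal. For ENSRNOG00000002919 the log2 fold change was 2.86 (SE 0.58, with an edgeR adjusted p = 0.0307). For ENSRNOG00000002946 it was 3.19 (SE 0.70, with an edgeR adjusted p = 0.0353). For both, the adjusted p was above 0.05 without any 1 of the treated animals 388, 403 or 428, between 0.068 and 0.0921. It was also above 0.05, at 0.0503 to 0.0749, without any 1 NC animal, except that the first of these genes stayed past the threshold without 437. With limma on log2(FPKM + 0.1) it was 0.0721 and 0.0731.

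Between DC + Lixi and DC, none of the 150 members was called lower by the same test, and the share called lower among all genes was 0%. The DC libraries had also served the choice. The log2 fold change was below 0 in 149 members, with a median of -0.49 and a median standard error of 0.24. An unadjusted p under 0.05 in the downward direction was found for 61 members, and for 6.58% of all genes. This number of members was 33 without the treated animal 419, 37 without 401, without 418 or without the DC animal 430, and 102 without 428. The share of all genes moved with it, to 5.07% without 419, 4.53% without 401, 5.69% without 418, 4.94% without 430 and 8.32% without 428. The number of members was 15 with the RNA integrity number in the fit and 113 with limma-voom, where the shares of all genes were 3.56% and 7.61%. DESeq2 called 1 member and 0.248% of all genes lower, and limma-voom and limma on log2(FPKM + 0.1) called 0 members and 0% of genes. The smallest p belonged to the member ranked 45, with 2.58 ± 0.532 FPKM in DC, 1.41 ± 0.526 in DC + Lixi and 0.705 ± 0.112 in NC (SD, n = 6 each), a log2 fold change of -0.85 against DC (SE 0.20, with an edgeR adjusted p = 0.189). Its treated animals ranged from 0.781 to 2.18 and its DC animals from 2.06 to 3.39, so the ranges met only at their ends. The members ranked 110, 89 and 148 came next, with log2 fold changes of -0.62, -0.59 and -0.35 and adjusted p = 0.221 to 0.234 from edgeR. For ENSRNOG00000002919 the log2 fold change was -0.95 (SE 0.54, with an edgeR adjusted p = 0.471). In DC vs NC, the contrast that chose them, all 150 members were called higher by edgeR, beside 9.36% of all genes, from which nothing is read here.

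The RNA integrity number, a score of how intact the RNA is, differed between the groups that chose the members. It was 8.6 to 8.9 in NC and 9.2 to 9.5 in DC, without overlap, so between these groups it cannot be told apart from diabetes. In DC + Lixi it was 9.0 in 388, 9.4 in 403 and 8.4 in 428, the animals near DC, and 9.0 in 401, 8.7 in 418 and 8.9 in 419. The treated animal with the highest median place, 428, had the lowest integrity number of all 18. Animals 388 and 401 both had 9.0, at places of 0.93 and 0.00. With the integrity number as a covariate edgeR called 10 members higher in DC + Lixi than in NC, and 0.194% of all genes. The median log2 fold change of the members was then 0.94, against 0.92 without the covariate. In DC vs NC, edgeR with the covariate called 0 of the 150 members and 0 of all 16524 genes in either direction. An upward unadjusted p under 0.05 was found there for 146 members and for 8.90% of all genes. This contrast chose the members, so nothing is read from the number of members. The median log2 fold change of the members in DC vs NC was 1.42 with the covariate and 1.41 without it, and their median SE was 0.38 with it and 0.25 without it. The RNA concentration was 745, 397 and 631 ng/µl in animals 388, 403 and 428 and 589, 685 and 477 ng/µl in 401, 418 and 419. It was 212 to 541 ng/µl in NC and 486 to 596 ng/µl in DC. The parts of RNA integrity and of RNA concentration in the members' levels were not tested.

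**Figure D5:**
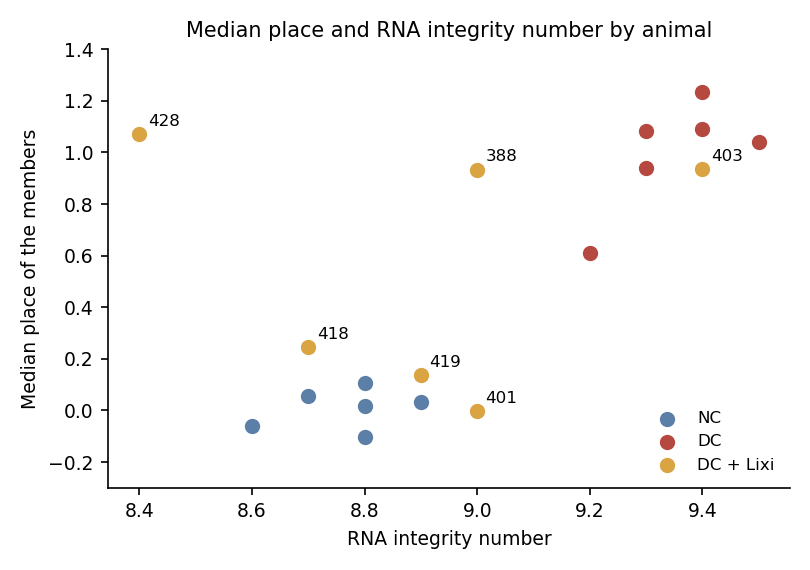
Median place of the 150 members (0 NC mean, 1 DC mean) against the RNA integrity number in each of the 18 animals, coloured by group, with the DC + Lixi animals numbered. NC lie at 8.6 to 8.9 and DC at 9.2 to 9.5, and the treated animals 388 and 401 lie at 9.0 with places of 0.93 and 0.00.

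The members varied together over the animals of a group. The median correlation r over pairs of members was 0.907 in DC + Lixi, 0.687 in DC and 0.224 in NC. Over pairs of all rows it was 0.0133, 0.0269 and 0.0554. How far the choice moves these values was not tested. Beyond their levels and this joint variation, little that the members shared is on record. Gene length, taken from the ratio of count to FPKM, was a median of 1.01 times the median of all rows, and 76 members were longer than that median. A count that was not whole occurred in 26.7% of the members and in 31.7% of all rows. Low counts touched few of them, as 12 members had a count under 10 in some library and 1 had an FPKM of 0 in an NC library.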

How the data were processed

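Single-end reads of 18 retinal libraries were aligned and quantified by the authors with Array Studio 10.1.3.3, and the submitters' processing notes name DESeq2. The aligner, build and gene annotation were not given in the sources used here. The authors deposited estimated counts per gene, not normalized, and FPKM values, scaled by library size and gene length. A deposited sheet of the samples gives the RNA integrity number (a score), the RNA concentration and the count of alignments per library (49487399 to 68360387).

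The members and lists were chosen with earlier results of these data known. The 150 members come from FPKM with a pseudocount of 0.1. The lists of pathway and cell type genes, and the rule for genes to be named, need symbols and could not be applied, since 0 gene numbers matched. The 2 gene numbers printed were chosen after their values were seen, as the first by rank.

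The count table had no value in 46805 cells, of which 1504 were restored from FPKM (median error 0.0018% and 99th percentile 10.7% over 20000 known cells), 7 of them in 7 members. The others were taken as 0. The test had been planned for whole counts, so estimated counts were rounded first. In R 4.3.3, edgeR 4.0.16 with filterByExpr, TMM (factors 0.967 to 1.046) and the quasi-likelihood test compared the groups in 1 fit with 15 residual degrees of freedom. The steps were tested on simulated data. Alternatives were scaling by RLE size factors or by total counts, no filter on low counts, DESeq2 1.42.0, limma-voom and limma 3.58.1 on log2(FPKM + 0.1) and log2(FPKM + 1), only the groups compared, the RNA integrity number as a covariate, missing counts left at 0, another pseudocount or minimum, all 497 rows, and leaving out each animal.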

Additional observations from a re-analysis of the deposited data

Results flagged for a closer look

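In groups of 6 animals, a value was singled out when its gap to the nearest animal, divided by the range of the group, was above 0.625. This was done on log2(FPKM + 0.1) for the first 12 members and the 8 with the lowest and highest places and on the median place, the share of summed FPKM in the members, the RNA integrity number and the RNA concentration, over 72 sets of 6 animals. Chance alone singles out about 1 in 20 sets that are independent. These sets share animals, and the NC and DC values of the members served the choice, so that rate is no yardstick here. In all, 5 sets were singled out. In 3 of these the animal was DC 425, the lowest of its group, with 0.743 FPKM for the member ranked 3, 1.26 for the member ranked 9 and 0.992 for the member ranked 11. In the others it was NC animal 431, the lowest of NC at 3.57 FPKM for the member ranked 10, and DC animal 430, the highest of DC at 9.97 FPKM for the member ranked 96. No treated animal was singled out in this way. The rule looks only at the lowest and the highest animal, so it can hardly single out an animal where several stand high and several low. Nothing is read from this on how alike the treated animals were.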

How the results depend on the processing

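The number of members called higher in DC + Lixi than in NC was 52 and became 32 with no filter, 117 with DESeq2, 8 with limma-voom, 23 and 14 with limma on log2(FPKM + 0.1) and log2(FPKM + 1), 19 with only the groups compared (147 members tested), and 10 when the RNA integrity number was a covariate. The shares of all genes called higher were 0.354%, 3.17%, 0.375%, 0.545%, 0.430%, 0.469% and 0.194% in this order, against 0.95%. Without single animals it was 5 to 122, the highest without DC + Lixi 401, beside 0.120% to 2.40% of all genes. It was 52 with RLE size factors, 61 with total counts only and 40 with missing counts left at 0, beside 0.956%, 0.841% and 0.775% of all genes. Members called lower in DC + Lixi than in DC numbered 0 in 27 of 28 alternatives and 1 with DESeq2. Members above every NC animal were 18 to 42 without single animals, where the share of all rows was not determined. Any row separates more easily with fewer animals, so nothing is read from this range. Among all 497 rows, 38 were above every NC animal, beside 0.511% of the 14078 rows with a mean FPKM of 1 or more in DC. Of all 32623 rows, 1.52% met the rule, which became 1.55% to 3.23% without single animals, the highest without DC 425, and of the 150 members 103 to 146 then remained. With a minimum of 5, 87 remained. Over 21 alternatives each, the median place was 0.455 to 0.667, against 0.56 in the main setting. The median log2 difference against NC was 0.281 to 0.924, against 0.77 in the main setting. The median log2 difference from DC was -0.737 to -0.265, against -0.62 in the main setting. These differences were nearest to 0 over all 497 rows. All shifts were smaller than the SD over treated animals, but that limit cannot decide whether the values were stable. Leaving out 1 animal can hardly move a mean by so wide an SD, so no stability is read from it. The log2 fold change of ENSRNOG00000002919 against NC was 2.03 to 3.09 over 28 alternatives, with adjusted p = 0.00022 to 0.102 from edgeR, DESeq2 or limma, and past the threshold in 15. For ENSRNOG00000002946 it was 1.47 to 3.43, with adjusted p = 0.000311 to 0.24 from the same tools, and past it in 15. No paired analysis was possible because each animal gave 1 library to 1 group and the groups share no numbers. Without gene symbols, neither roles nor cell types of the members could be examined, and labels of separate animals are the only statement that replicates are biological.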
